A study of Mus musculus with 4 samples.

Results

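Endothelial cells line the blood vessels, and a small set of genes marks them in nearly every tissue. The 10 genes described here are Pecam1, Cdh5, Kdr, Flt1, Tek, Tie1, Eng, Emcn, Erg and Robo4. They were taken by symbol from the deposited gene tables, as a measure of how much vessel RNA each sorted cochlear sample carried. All 10 were listed among the 23420 genes of the tables, and all 10 had enough reads to be tested.

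Cochleae of Atoh1-GFP mice of the CD1 strain, whose hair cells carry GFP, were dissected on postnatal day 1, cultured overnight and then kept for 3 h with or without 0.5 mM gentamicin, an aminoglycoside antibiotic that kills hair cells. Cell sorting gave GFP-positive hair cells (HCs) and GFP-negative non-hair cells (NHCs), a mixture of supporting cells, other epithelial cells and the tissue around them, while cells with weak GFP were discarded. The 4 groups were control HCs, gentamicin-treated HCs, control NHCs and gentamicin-treated NHCs, each with 3 replicates, and all came from the same transgenic line. Neither gate used a vessel marker, and treatment took place in explants, which have no blood flow.

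The values are scores, that is, reads on a gene scaled within each replicate with 1 added, so that a gene without reads has a score of 1. Between 22395037 and 28146016 reads fell on genes in a replicate, and 1 read was worth 0.0352 to 0.0461 score units. A member had 208 to 6661 reads in an NHC replicate but only 9 to 151 in an HC replicate, so the HC values are far less precise. The sort itself was visible in the HC marker Gfi1, a transcription factor, with a score of 266 ± 12.3 in control HCs and 1.12 ± 0.0798 in control NHCs (SD, n = 3). NHC replicates differed from one another in marker genes of other cells: the summed level of 7 erythroid genes was 64.0 in control replicate 1 and 3.24 to 7.79 in the other 5.

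The members fall into 5 kinds by what their proteins do. Pecam1 and Cdh5 (VE-cadherin) hold neighbouring endothelial cells together at their junctions. Kdr (VEGFR2) and Flt1 (VEGFR1) are receptors for VEGF, the main growth signal of vessels, with Kdr carrying most of the signal and Flt1 binding much of the ligand without passing it on strongly. Tek (Tie2) is the receptor for the angiopoietins, which steady mature vessels, and Tie1 is its partner without a known strong ligand of its own. Eng (endoglin) is a co-receptor for BMP9 and related ligands, Robo4 is a receptor of the roundabout family that stabilises vessels, and Emcn (endomucin) is a sialomucin on the surface of veins and capillaries. Erg is an ETS-family transcription factor that keeps endothelial genes on. In the cochlea, vessels run in the lateral wall, under the sensory epithelium and around the spiral ganglion.

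ETS factors bind DNA at sites built around GGAA, so the stretch before the start of transcription was searched for that core on both strands. RefSeq promoters on GRCm38.p6 were found for 8 of the 10 members, and Pecam1 and Cdh5 were not among them. In the 250 bases before the start, Tie1 held 7 matches to GGAA, Emcn, Kdr and Flt1 4 each, Eng and Robo4 3 each and Tek 2, while the 3 starts of Erg held 0, 4 and 2. The core is common: 93.4% of 32851 mouse promoters hold it, with a median of 3 matches. The promoters of Emcn, Eng, Kdr and Flt1 are shown because the first pair and the second pair ran in different orders over the NHC replicates (described further on). They are written 5′ to 3′ on the strand of the gene, up to the last base before the outermost annotated start, with GGAA and its reverse complement TTCC in capitals. The stretches are chr3:137340828-137341066 on the plus strand for Emcn, chr2:32646345-32646594 on the plus strand for Eng, chr5:75978459-75978705 on the minus strand for Kdr and chr5:147726012-147726261 on the minus strand for Flt1.
Emcn: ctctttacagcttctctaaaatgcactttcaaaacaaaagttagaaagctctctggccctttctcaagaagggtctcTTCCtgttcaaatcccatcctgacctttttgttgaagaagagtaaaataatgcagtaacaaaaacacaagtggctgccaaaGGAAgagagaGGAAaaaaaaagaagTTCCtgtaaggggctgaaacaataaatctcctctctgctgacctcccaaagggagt
Eng: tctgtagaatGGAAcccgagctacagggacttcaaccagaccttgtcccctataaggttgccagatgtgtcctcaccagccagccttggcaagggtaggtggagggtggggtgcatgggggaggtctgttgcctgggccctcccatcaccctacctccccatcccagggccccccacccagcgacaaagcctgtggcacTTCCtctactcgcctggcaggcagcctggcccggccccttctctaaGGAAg
Kdr: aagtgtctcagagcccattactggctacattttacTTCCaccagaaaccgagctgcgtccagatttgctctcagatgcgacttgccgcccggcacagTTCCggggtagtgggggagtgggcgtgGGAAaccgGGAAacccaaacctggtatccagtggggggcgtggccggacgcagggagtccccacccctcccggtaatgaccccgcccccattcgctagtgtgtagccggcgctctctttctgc
Flt1: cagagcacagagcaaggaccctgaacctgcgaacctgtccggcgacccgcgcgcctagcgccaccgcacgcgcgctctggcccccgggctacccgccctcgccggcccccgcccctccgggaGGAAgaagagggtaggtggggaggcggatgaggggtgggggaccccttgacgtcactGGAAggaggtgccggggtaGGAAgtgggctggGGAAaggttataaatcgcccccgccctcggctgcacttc

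All 4 of these held the core, 4 times in Emcn, Kdr and Flt1 and 3 times in Eng. The longer ETS-type word CAGGAAG, an extension of GGAA and so counted within it, was present in 10.8% of all promoters and in those of Emcn, Robo4 and 1 of the 3 starts of Erg. Distances here are counted from the RefSeq start, which in both Emcn and Robo4 lies downstream of the outermost annotated start. The match in Emcn lay 174 bases before the RefSeq start, on the minus strand. That in Robo4 lay 50 bases before the RefSeq start, within an exon of the outermost Robo4 transcript. Both are shown with the word or its reverse complement CTTCCTG in capitals, at chr3:137340893-137340921 for Emcn and chr9:37401911-37401939 for Robo4, each on the plus strand.
Emcn site: aagaagggtctCTTCCTGttcaaatccca
Robo4 site: tgagggccaggCAGGAAGcatccgtttcc

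Of the other words searched, the SOX-type ACAAAG was found in the promoters of Eng and Tek and in 16.5% of all promoters. The SOX-type ACAATG and the GATA-type AGATAA were both found at 1 start of Erg, the same start that held CAGGAAG, and in 10.7% and 9.99% of all promoters. The TATA-type TATAAA was found in the promoter of Flt1 and at another start of Erg, and in 12.4% of all promoters. These matches describe the letters only.

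All 10 members were higher in control NHCs than in control HCs. At an adjusted p under 0.05 and a fold change over 1.2, 10 of 10 passed in limma, against 40.9% of the 16076 tested genes that passed in this direction. In all 10, every control NHC replicate lay above every control HC replicate, which held for 44.6% of tested genes. The log2 differences ran from 2.68 in Robo4 to 4.96 in Emcn with a median of 3.15, and the median over all tested genes was 0.12. In these bulk samples, fewer endothelial cells and less endothelial RNA per cell cannot be told apart, here or in any comparison that follows.

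**Figure D1:**
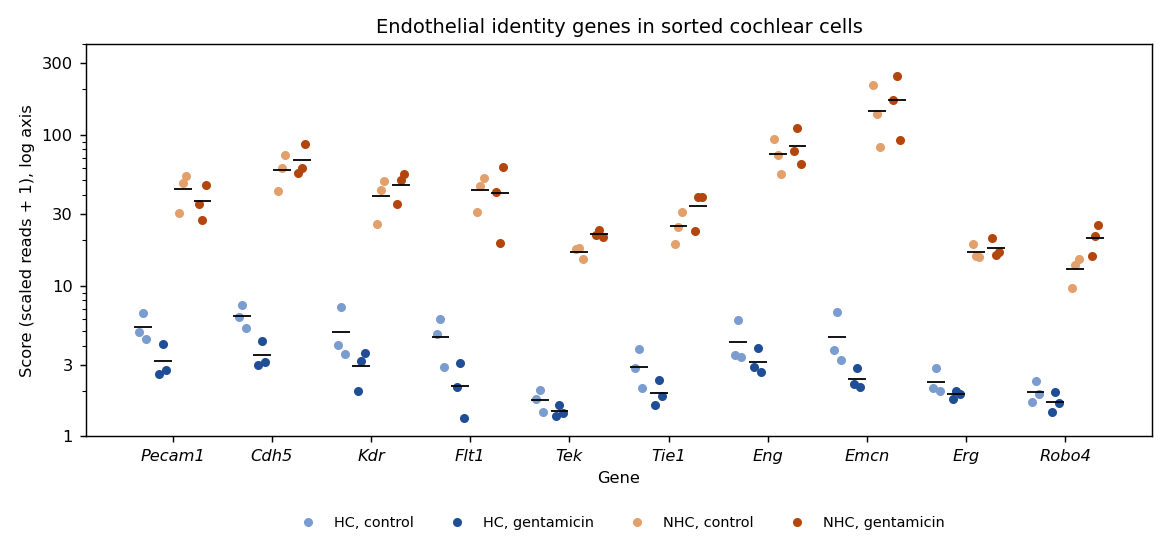
Score of each of the 10 genes (log axis) in every replicate of the 4 groups, with a bar at each group mean. Each gene's 6 NHC replicates lie above its 6 HC replicates, and Emcn has the highest mean of the 10 in NHCs.

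Emcn (chr3:137341067-137432185) showed the widest gap. Its score was 213, 137 and 82.8 in the control NHC replicates and 3.74, 6.73 and 3.21 in the control HC replicates. The log2 difference was 4.96 (SE 0.41, adjusted p = 5.06e-07). Eng (chr2:32646595-32682669) came next, with scores of 94.0, 73.9 and 54.8 in control NHCs and 3.48, 5.96 and 3.35 in control HCs. Its log2 difference was 4.14 (SE 0.28, adjusted p = 1.01e-07). The log2 differences of the other 8 lay between 2.68 and 3.26 with the deposited offset of 1. With an offset of 0.1 that of Tek rose to 4.26, near the 4.495 of Eng, so the gap between Eng and the rest depends on the offset for Tek.

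Among the 8, the junction genes were measured best in HCs. Cdh5 (chr8:104101625-104144511) scored 42.4, 60.5 and 72.9 in control NHCs and 6.21, 7.46 and 5.24 in control HCs. Pecam1 (chr11:106654217-106750628) scored 30.2, 47.9 and 53.4 in control NHCs and 4.91, 6.60 and 4.46 in control HCs. Both had their highest HC value in control replicate 2, and so did each of the other 8 members. The VEGF receptors were alike in level: Kdr (chr5:75932827-75978458) scored 25.7, 43.1 and 49.3 in control NHCs, and Flt1 (chr5:147561604-147726011) 30.9, 45.6 and 52.0. In control HCs the scores were 4.04, 7.24 and 3.53 for Kdr and 4.78, 6.003 and 2.89 for Flt1.

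Tek (chr4:94739289-94874976), the angiopoietin receptor, was the most even member in control NHCs, with NHC scores of 17.4, 17.7 and 15.0 and control HC scores of 1.78, 2.03 and 1.46. It had the smallest p of the 10 for the gap between the populations (log2 difference 3.26, SE 0.14, adjusted p = 2.94e-09). Its partner Tie1 (chr4:118471191-118490061) scored 18.9, 24.6 and 30.7 in control NHCs and 2.82, 3.78 and 2.11 in control HCs. The ETS factor Erg (chr16:95359169-95586593) scored 18.9, 15.8 and 15.4 in control NHCs and 2.09, 2.84 and 2.01 in control HCs. Robo4 (chr9:37401897-37415115) was the lowest member in control NHCs, with 9.60, 13.8 and 15.1 in control NHCs and 1.69, 2.33 and 1.92 in control HCs.

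Scores carry no correction for gene length, so levels were compared between genes as score above the offset per kilobase of the longest coding transcript. In control NHCs the order was Emcn (55.3 ± 25.4 per kb), Eng (21.4 ± 5.73), Cdh5 (14.4 ± 3.85), Pecam1 (12.4 ± 3.52), Kdr (6.48 ± 2.06), Flt1 (6.07 ± 1.57), Tie1 (5.61 ± 1.39), Erg (4.83 ± 0.587), Tek (3.37 ± 0.322) and Robo4 (2.38 ± 0.576; SD, n = 3 each). Neighbours separated in every replicate were Emcn from Eng, Pecam1 from Kdr, Erg from Tek and Tek from Robo4. Eng, Cdh5 and Pecam1 overlapped pairwise along the order, and so did Kdr, Flt1, Tie1 and Erg. In control HCs the order differed at the top, since Emcn (1.38 ± 0.734 per kb), Cdh5 (1.33 ± 0.278), Pecam1 (1.26 ± 0.329) and Eng (0.953 ± 0.430) all overlapped there. The lead of Emcn in NHCs was therefore not seen in HCs.

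Each HC level was also set against the control NHC mean of its gene, both taken above the offset. In control HCs, Kdr stood at 10.3% of the NHC level, Pecam1 at 10.1%, Cdh5 at 9.20%, Flt1 at 8.50%, Erg at 8.36%, Robo4 at 8.31% and Tie1 at 8.02%. The share was 4.82% for Tek, 4.45% for Eng and 2.48% for Emcn. Tek, Eng and Emcn were the lowest of the 10 in each control HC replicate, and Emcn stood at 1.91%, 4.001% and 1.54% there. The difference between genes in this share was not tested.

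Gentamicin left most members without a detectable change in NHCs. At the study's criteria (fold change over 1.2 with p under 0.01 before adjustment), 1 of 10 members, Robo4, rose and 0 fell, while 3.18% of the tested genes rose and 2.26% fell by the same criteria. At an adjusted p under 0.05 the count was 0 of 10 in limma, against 0.342% of tested genes, with 2 members at an unadjusted p under 0.05. The fitted log2 difference was above 0 in 8 members and below 0 in Pecam1 and Flt1. The median was 0.22, beside -0.0050 over all tested genes. In 2 members, Robo4 and Tek, all 3 treated replicates lay above all 3 controls, which held for 10.1% of tested genes.

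Robo4 scored 15.6, 21.4 and 25.2 in gentamicin-treated NHCs, above its controls of 9.60, 13.8 and 15.1. The log2 difference was 0.69 (SE 0.22, adjusted p = 0.161). Robo4 no longer met the criteria without control replicate 1 (0.50), control replicate 2 (0.76), gentamicin replicate 2 (0.66) or gentamicin replicate 3 (0.54). Over all alternatives its difference stayed above 0, from 0.46 to 0.88, with adjusted p from 0.0887 to 0.421. Tek scored 21.6, 23.4 and 20.9 with gentamicin, against 17.4, 17.7 and 15.0 without. Its log2 difference was 0.40 (SE 0.14, 95% interval 0.084 to 0.71, adjusted p = 0.200), short of the criteria.

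The remaining members overlapped between treated and control NHCs. Tie1 scored 23.1, 38.4 and 38.9 with gentamicin, with only replicates 2 and 3 above the controls (log2 difference 0.43, 95% interval -0.18 to 1.03). Kdr scored 34.6, 49.8 and 55.1 (log2 difference 0.27, interval -0.47 to 1.00), and Cdh5 scored 55.8, 60.3 and 87.2 (0.22, interval -0.31 to 0.74). The highest control was passed by 2 of 3 treated replicates in Kdr and by 1 of 3 in Cdh5. Pecam1 scored 34.8, 27.3 and 46.7 (log2 difference -0.27, interval -0.86 to 0.33), and its lowest value was in gentamicin replicate 2. Flt1 scored 41.8, 19.2 and 61.5 (log2 difference -0.19, interval -1.15 to 0.77), with the lowest and the highest of its 6 NHC values both among the treated replicates. Without gentamicin replicate 2 the Flt1 difference turned to 0.28.

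Emcn scored 169, 246 and 92.0 with gentamicin, a log2 difference of 0.22 with an interval of -0.67 to 1.11. Eng scored 78.2, 110.2 and 63.8, a log2 difference of 0.18 with an interval of -0.43 to 0.79. In both, replicate 2 was the highest of the treated samples, and both differences turned below 0 without it, to -0.10 in Emcn and -0.037 in Eng. Erg was the flattest member, with 20.7, 16.1 and 16.8 against 18.9, 15.8 and 15.4 (log2 difference 0.092, interval -0.26 to 0.45). The intervals of 7 of the 9 members other than Robo4 include its 0.69, and those of Pecam1 and Erg end below it.

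**Figure D2:**
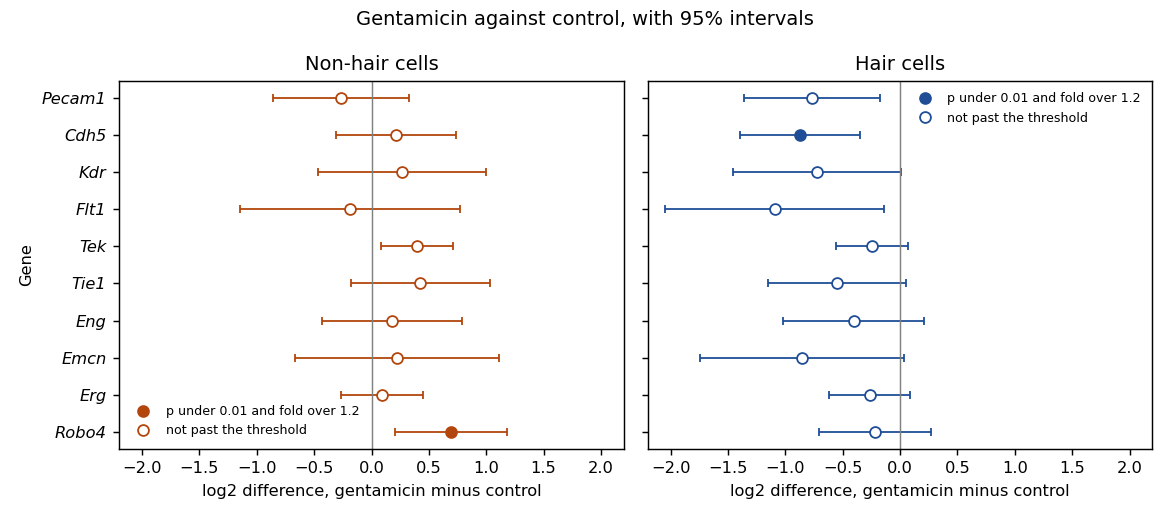
Log2 difference between gentamicin-treated and control replicates for each gene in NHCs and in HCs, with 95% intervals from limma. In NHCs 8 of 10 values lie above 0 and Robo4 met the criteria, and in HCs all 10 lie below 0 and Cdh5 met them.

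In HCs, every member had a lower fitted level in gentamicin-treated than in control cultures. By the same criteria, 1 of 10, Cdh5, fell, against 14.8% of tested genes. At an adjusted p under 0.05, 2 of 10, Cdh5 and Pecam1, were lower, against 18.4% of tested genes. The treated replicates lay wholly below the controls in 4 members, Cdh5, Pecam1, Emcn and Erg, and in 33.1% of tested genes. The shares of members past each threshold were therefore near the background. The median log2 difference of the members was -0.64, beside -0.086 over all tested genes.

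Cdh5 scored 2.98, 4.31 and 3.10 in gentamicin-treated HCs, all below its controls of 6.21, 7.46 and 5.24, and recovered reads were 48, 79 and 59 against 120, 151 and 92. The log2 difference was -0.87 (SE 0.24, adjusted p = 0.0168). It missed the criteria without control replicate 1 (-0.87), control replicate 2 (-0.74), gentamicin replicate 1 (-0.77) or gentamicin replicate 3 (-0.80), and over all alternatives adjusted p ran from 0.00892 to 0.210. Pecam1 scored 2.61, 4.10 and 2.75 with gentamicin against 4.91, 6.60 and 4.46 without, a log2 difference of -0.77 (SE 0.27, adjusted p = 0.0485). Its adjusted p passed 0.05 when any 1 of control replicates 1, 2 and 3 or gentamicin replicates 1 and 3 was left out, at 0.0590 to 0.172, and was 0.0336 without gentamicin replicate 2. Among the other settings it was above 0.05 with reads scaled to equal totals, quantile normalization, a minimum of 1 read, no trend or voom weights. Over all alternatives in limma it ran from 0.0272 to 0.287.

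Flt1 had the lowest fitted value, with 2.11, 3.05 and 1.32 in treated HCs against 4.78, 6.003 and 2.89, and the groups overlapped (log2 difference -1.09, SE 0.44, adjusted p = 0.0748). Its lowest sample, gentamicin replicate 3, held 9 reads. Emcn scored 2.24, 2.84 and 2.14 against 3.74, 6.73 and 3.21, without overlap (log2 difference -0.86, SE 0.41, adjusted p = 0.127). Kdr scored 1.99, 3.18 and 3.60 against 4.04, 7.24 and 3.53, and it was the only member whose highest treated value was not in replicate 2. The other 5 members, Tek, Tie1, Eng, Erg and Robo4, had log2 differences of -0.22 to -0.55 and adjusted p of 0.145 to 0.477. The offset of 1 understates differences of genes this low. With an offset of 0.1 the log2 difference was -1.72 in Flt1, -0.91 in Tie1, -0.54 in Tek, -0.45 in Erg and -0.45 in Robo4, each over 1.5 times the value with the offset of 1.

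Markers of several other cell types were also at lower levels in treated HCs. Median levels in HC samples, as a percentage of the control NHC mean of each gene, were 5.56% to 11.5% in controls and 2.63% to 5.70% with gentamicin for the 10 members. For 9 pericyte markers the ranges were 8.65% to 10.6% and 4.01% to 4.501%, and for 10 mesenchyme markers 2.69% to 7.07% and 1.41% to 2.27%. For 10 macrophage markers they overlapped, at 2.14% to 5.03% and 3.47% to 8.55%. Supporting cell markers are not particular to NHCs in these samples: the ranges of that list were 127% to 143% in control HCs and 62.3% to 118% in treated HCs. The counts that follow stand against the 14.8% of tested genes that fell in HCs. By the study's criteria, 5 of 9 tested pericyte genes fell and 0 rose, among them Abcc9, a potassium channel subunit (log2 difference -0.84, adjusted p = 0.000969), and Cspg4, a proteoglycan (-1.40, adjusted p = 0.00152). Of 10 mesenchyme genes 3 fell and 0 rose, small counts beside that background, including the matrix genes Dcn (-0.69, adjusted p = 0.0113) and Col3a1 (-1.33, adjusted p = 0.0137). Of 8 Schwann cell markers 3 fell, including Foxd3 (-1.40, adjusted p = 0.00577) and Mbp (-0.47, adjusted p = 0.0310), and of 10 supporting cell markers 3 fell, including Hes5 (-2.02, adjusted p = 0.00424) and Lfng (-1.17, adjusted p = 0.0151). No macrophage, erythroid, platelet or hair cell marker met the criteria in HCs in limma, and 2 of them, both hair cell markers, had an unadjusted p under 0.05. The part that RNA from NHCs in the sorted HC samples had in the members' values was not tested.

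**Figure D3:**
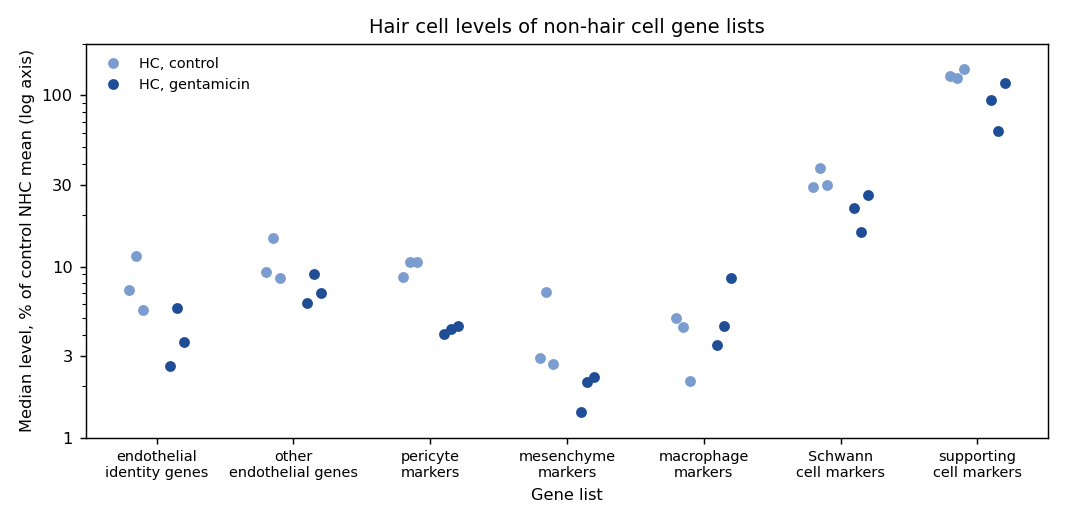
Median level of each gene list in the 6 HC replicates, as a percentage of the control NHC mean of each gene (log axis), counting genes with an NHC level of at least 2 above the offset. Treated replicates of the pericyte, mesenchyme, Schwann cell and supporting cell lists lie below all their controls. Those of the endothelial identity genes (2.63% to 5.70% against 5.56% to 11.5%), the other endothelial genes and the macrophage list overlap their controls.

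Control HC replicate 2 weighs on this comparison, since all 10 members were highest there. The summed level of the members above the offset was 25.5, 40.97 and 20.2 in control HCs and 11.05, 19.3 and 12.5 in treated HCs. Without control replicate 2 the fitted differences of the members in HCs stayed below 0 in all 10, but the criteria were then met by 0 of 10 in limma, and 1 had an unadjusted p under 0.05.

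The response of NHCs minus that of HCs was above 0 in all 10 members, with a median of 0.91 on the log2 scale beside 0.071 over all tested genes. At an adjusted p under 0.05, 0 of 10 members passed in limma, against 13.4% of tested genes, while 4 had an unadjusted p under 0.05. These 4 were Cdh5 (1.09, SE 0.34, adjusted p = 0.0549), Tek (0.64, SE 0.20, adjusted p = 0.0584), Robo4 (0.92, SE 0.31, adjusted p = 0.0757) and Tie1 (0.98, SE 0.39, adjusted p = 0.117). With the replicate number as a block, 3 of the 10 passed, Robo4 (adjusted p = 0.0202), Tek (adjusted p = 0.0347) and Cdh5 (adjusted p = 0.0441). Same-numbered control HC and NHC replicates deviated together, while same-numbered treated and control replicates did not in every pair. Treated HC and NHC replicates were not compared in this way. Whether Cdh5, Tek and Robo4 passed depended on the processing, and not on the block alone. Of 22 alternatives in limma, the block included, Cdh5 passed in 3, Tek in 3 and Robo4 in 2. Besides the block, Cdh5 passed with an offset of 0.1 or without control NHC replicate 3. Tek passed with no variance trend or without control HC replicate 3, and Robo4 without gentamicin-treated NHC replicate 1.

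Within NHCs the members did not rise and fall as 1 unit from sample to sample. Expressed as log2 score minus the gene's mean over the 6 NHC replicates, Emcn spanned -0.81 to 0.77 and Eng -0.49 to 0.52. In both, the control replicates ran from highest in 1 to lowest in 3, and the treated ones from highest in 2 to lowest in 3. Pecam1, Cdh5, Kdr, Flt1, Tie1 and Robo4 ran the other way in controls, lowest in replicate 1 and highest in 3, and were highest in replicate 3 among the treated samples. Tek and Erg had the narrowest spans, -0.35 to 0.29 and -0.15 to 0.27. These orders were noticed in the values and are given as a description.

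**Figure D4:**
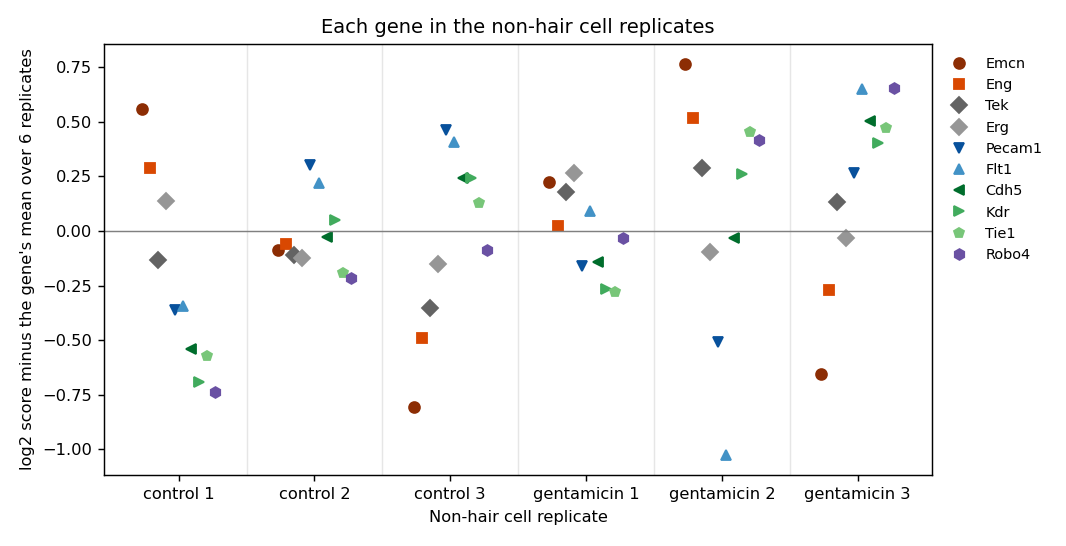
Log2 score of each gene in each NHC replicate minus its own mean over the 6 replicates. Emcn and Eng lie at the top in control 1 and gentamicin 2 and at the bottom in control 3 and gentamicin 3, and Flt1 and Robo4 reach 0.65 in gentamicin 3.

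The order of Emcn and Eng was found in 6 of 10 mesenchyme markers, 1 of 22 other endothelial genes, 1 of 9 pericyte markers, 1 of 10 hair cell markers, 0 of 10 supporting cell markers and 12.6% of all tested genes. The order of the 6 others (lowest in control 1, highest in control 3 and in gentamicin 3) was found in 10 of 22 other endothelial genes, 6 of 10 supporting cell markers, 5 of 10 hair cell markers, 3 of 9 pericyte markers, 1 of 10 mesenchyme markers and 16.2% of tested genes. The median mesenchyme level, as a percentage of the control NHC mean, was 118%, 101% and 77.0% in the control replicates and 117%, 131% and 91.5% in the treated ones. For supporting cell markers it was 78.5%, 87.9% and 128% and then 85.7%, 50.7% and 99.3%. The levels of these marker lists thus differed from replicate to replicate, and their part in the members' values was not tested.

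Because the members ran in different orders, their sum depended on which genes it held. The summed level of all 10 above the offset was 491, 469 and 431 in control NHCs and 485, 603 and 498 with gentamicin, a mean of 464 ± 30.4 against 529 ± 64.3 (SD, n = 3). Emcn alone made up 43.2%, 28.9% and 19.0% of it in controls and 34.6%, 40.7% and 18.3% with gentamicin. Without Emcn and Eng the sum was 186, 261 and 296 in controls and 240, 248 and 344 with gentamicin. Control replicate 1 was thus the highest control by the sum of 10 and the lowest by the sum of 8, and treated and control samples overlapped in both.

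**Figure D5:**
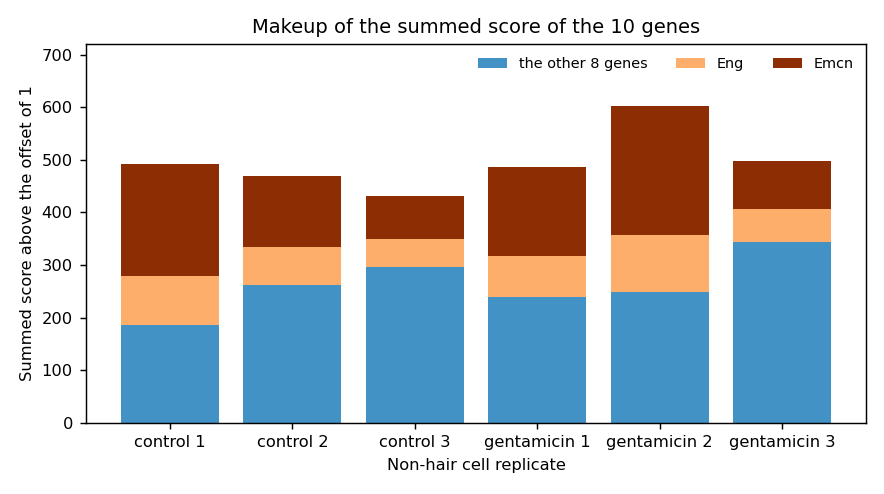
Summed score above the offset of the 10 genes in each NHC replicate, split into Emcn, Eng and the other 8 genes. Emcn takes 43.2% of the bar in control 1 and 18.3% in gentamicin 3, while the part of the other 8 is smallest in control 1 (186) and largest in gentamicin 3 (344).

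The genes whose NHC pattern was most like the mean of the 10 members were picked from 12957 tested genes with a mean score of at least 5 there, by Pearson's r over the 6 NHC replicates. That mean averages members that ran in different orders, and it went only from -0.24 in control 1 to 0.21 in gentamicin 3 (log2). Likeness to the mean is therefore not likeness to each member. The 10 nearest were Wbp7, Agfg2, Scarf1, Igsf11, Tet3, Spen, Scd2, Cc2d1b, Mmp28 and Lrfn4, with r of 0.982 to 0.995. Scarf1, a scavenger receptor found on endothelial cells, scored 8.94, 11.4 and 11.1 in controls and 11.2, 12.3 and 14.5 with gentamicin. None of the 10 was on the list of other endothelial genes. The points share their libraries with the members, and 132 of the genes compared had r over 0.9.

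Other genes of endothelial cells were read from a list of 22. The list was chosen with earlier results of these data known, so its counts are a description and not a test. In NHCs, 7 rose by the study's criteria (background 3.18%) and 0 fell, with a median log2 difference of 0.27 beside the 0.22 of the members, and the lists were not tested against each other. The 2 with the smallest p were Egfl7, a secreted vessel protein, which went from 35.3 ± 5.74 to 91.6 ± 8.83 (SD, n = 3), and the transcription factor Sox7, which went from 12.9 ± 3.08 to 49.0 ± 14.2 (SD, n = 3). Their log2 differences of 1.38 (adjusted p = 0.00505) and 1.91 (adjusted p = 0.0301) lay above the 0.69 of Robo4, the highest member. In HCs, 2 of the 22 fell (background 14.8%) and 0 rose: Ets1, an ETS factor, by 1.28 on the log2 scale (adjusted p = 0.00162), and Clec14a by 0.52 (adjusted p = 0.0285). The fitted difference in HCs was below 0 in 17 of the 22 and above 0 in 5, with a median of -0.26. The difference between the responses passed an adjusted p under 0.05 in 7 of the 22, all higher in NHCs, against 13.4% of tested genes in either direction.

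Markers of other cell types were tested in NHCs as well. Of 67 tested markers of pericytes, macrophages, erythroid cells, platelets, mesenchyme, Schwann cells, supporting cells and hair cells, 0 met the criteria in NHCs in limma, and 4 had an unadjusted p under 0.05. Over all tested genes, 3.18% rose and 2.26% fell by the criteria. The fitted difference was below 0 in 8 of 10 supporting cell markers (median -0.38), and 2 of these 10 had an unadjusted p under 0.05. It was below 0 in all 5 tested erythroid markers (median -1.29). The pericyte sum was 794 to 906 in control NHCs and 746 to 859 with gentamicin, the macrophage sum 45.5 to 86.0 and 55.2 to 80.3, and the mesenchyme sum 5964 to 7737 and 6668 to 10224. No marker of the lists with a sum given here was without reads in all 3 replicates of an NHC group.

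Ligands and partner receptors of the members complete the pathways. Of 17 tested, 1 rose in NHCs (background 3.18%) and 0 fell (background 2.26%). It was Pgf (placental growth factor, a ligand of Flt1), at 16.8 ± 2.68 in controls and 21.7 ± 0.358 with gentamicin (SD, n = 3), a log2 difference of 0.39 (adjusted p = 0.151). In HCs 1 rose (background 12.7%) and 6 fell (background 14.8%). Pgf was the one that rose, from 43.0 ± 3.97 to 58.2 ± 4.60 (SD, n = 3, log2 difference 0.44, adjusted p = 0.0172). Among those that fell, the smallest p were those of Slit3, a secreted guidance ligand of the roundabout receptors (-1.43, adjusted p = 0.000229), and Vegfb, another Flt1 ligand (-0.62, adjusted p = 0.00163). Between the control populations, 10 of the 17 were higher in NHCs (background 40.9%), led by the VEGF co-receptor Nrp1 (3.26) and the Eng partner Acvrl1 (3.33). A further 4 were higher in HCs (background 30.2%), led by Figf, now Vegfd (-2.45), and Pgf (-1.37, NHC minus HC). The receptors among the members were thus NHC genes, while HC samples held more mRNA for some of the ligands.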

How the data were processed

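Reads were trimmed and aligned by the authors to mm10 with TopHat 2 in PartekFlow. The deposited score of each gene and replicate is reads scaled per replicate plus an offset of 1: the methods name RPKM, but no division by gene length is seen, and 82.8% to 83.6% of low values are whole reads within 0.1 read.

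Log2 scores of the 16076 genes with at least 100 recovered reads over 12 replicates were fitted with limma 3.58.1 (R 4.3.3; variance trend; 4 groups in 1 model), after a check on simulated data. The simulated counts were drawn independently for each gene, so the check did not cover shifts that many genes share within a replicate. Tests were two-sided, and adjusted p-values are Benjamini-Hochberg values over all genes tested. The thresholds of p under 0.01 and fold change over 1.2 follow the study. The difference between responses was read at an adjusted p under 0.05, and the control populations at that value with a fold change over 1.2. P-values measure the spread between replicates, which the study calls biological.

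All 10 members were named in each contrast, with at most 2 genes per direction with the smallest p from other lists. The genes most like the members were ranked by Pearson's r. The members and lists were chosen with earlier results of these data known. Positions and lengths (longest coding transcript) are from GENCODE M21 on the same assembly (mm10). Alternatives were another scaling, offset, read minimum, variance model or threshold, a replicate block, the compared groups alone, and each replicate left out. Same-numbered control HC and NHC replicates deviated together (r across genes 0.200 to 0.316), but the main fit did not pair them. Pairing entered only through the replicate block among the alternatives. The standard errors and p-values printed for the control populations and, from the main fit, for the difference between responses are therefore unpaired. Whether same-numbered treated HC and NHC replicates deviated together was not examined. The authors' comparisons were not used.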

Additional observations from a re-analysis of the deposited data

How the results depend on the processing

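The gap between control NHCs and HCs held for 10 of 10 members under every alternative run, the replicate block included. Quantile normalization moved the median log2 difference of all tested genes between these populations from 0.12 to 0.0071 and that of the members from 3.15 to 2.88. The number of members meeting the criteria in NHCs was 1 in the report, 2 under quantile normalization, no trend, voom weights and the replicate block, and 0 with an offset of 0.1, a minimum of 1000 reads or of 1 read, the compared groups fitted alone, adjusted p alone, or (chosen after seeing the data) without control replicate 1 and gentamicin replicate 2 together. It was 0 to 1 with 1 replicate left out. In HCs the number was 1, and 0 under quantile normalization and voom weights, 2 with an offset of 0.1, the groups alone or adjusted p alone, and 0 to 2 with 1 replicate left out. For the difference between responses it was 0, and also 0 without those 2 replicates, but 1 with an offset of 0.1 or no trend, 3 under the replicate block, and 0 to 1 with 1 replicate left out. The causes were not tested. Same-numbered treated and control replicates did not deviate together in each pair (r across genes 0.0369 to 0.0523 in HCs, -0.232 to 0.683 in NHCs), so the block is no pairing for gentamicin. The log2 difference changed sign in NHCs only. With 1 replicate left out it ran from -1.64e-05 to 0.39 in Cdh5 and from -0.015 to 0.47 in Kdr (both below 0 without control replicate 1), from -0.56 to 0.28 in Flt1 (above 0 without gentamicin replicate 2), from -0.037 to 0.36 in Eng and -0.13 to 0.61 in Emcn (below 0 without control replicate 3 or gentamicin replicate 2), and from -0.019 to 0.18 in Erg (below 0 without gentamicin replicate 1). Without control 1 and gentamicin 2 together, Kdr (-0.079) and Flt1 (0.058) turned. With 9 to 151 reads a member, small changes in HCs could not be seen at this depth.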
